A study of Homo sapiens with 6 samples.

Results

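The C/EBP and PAR bZIP transcription factors were followed in Huh7 cells, an established human hepatoma line, after transfection of an siRNA against ASGR1, the gene of the major subunit of the hepatocyte asialoglycoprotein receptor. The genes are CEBPA, CEBPB, CEBPD, CEBPG, CEBPZ, DBP, HLF, TEF and NFIL3, chosen by name and family. They are 9 of the 57905 Ensembl gene IDs in the table, and all 9 were among the 13568 genes that passed the filter on low values, with at least 1 FPKM in all 6 libraries. FPKM is fragments per kilobase of exon, scaled to the depth of the library. Levels of different genes can be set side by side only as far as the exon lengths used match their transcripts.

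RNA was sequenced from 3 libraries of cells given a control siRNA with a scrambled target (siControl) and 3 libraries of cells given the siRNA against ASGR1 (siASGR1). Both groups were unmodified Huh7 cells in the same serum-containing DMEM with antibiotics, and both were harvested 72 h after transfection. The model is 1 hepatoma line; whether the siRNA was 1 oligonucleotide or a pool is not stated in the labels. Each group has libraries 1, 2 and 3, not stated to come from separate cultures, and p-values therefore reflect only the spread from library to library, which may be technical.

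C/EBP proteins carry a basic region that contacts DNA and a leucine zipper through which they pair with each other and with ATF and AP-1 proteins. CEBPA maintains the metabolic gene programme of hepatocytes, CEBPB and CEBPD carry the acute-phase response, and CEBPG lacks an activation domain and works as a partner. CEBPZ shares only the name: it has no leucine zipper, binds the CCAAT box and takes part in ribosome assembly in the nucleolus. The PAR bZIP factors DBP, HLF and TEF, named for a domain rich in proline and acidic residues, activate genes through a site called the D-box and carry the rhythm of the circadian clock to liver metabolism. NFIL3, also known as E4BP4, occupies the same D-boxes as a repressor.

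ASGR1 itself was at 17.54, 17.56 and 16.90 FPKM in the siControl libraries and at 4.60, 4.82 and 4.71 in the siASGR1 libraries of the series table. This is a fall to 27.2% of the siControl mean (log2 fold change -1.68, SE 0.044, adjusted p = 1.75e-06, limma). The single-library files gave 14.65, 15.81 and 14.04 for the siASGR1 libraries, or 85.6% of the siControl mean (log2 fold change -0.21, adjusted p = 0.00954, limma). ASGR1 was the only gene of the 57905 that differed between these sources. The FPKM values below therefore do not depend on the choice, while the extent of the knockdown does. Adjusted p-values come from a fit over all genes and can shift slightly, that of CEBPD from 2.03e-06 to 2.1e-06 (limma). Libraries held 16311000 to 19315000 fragments, as rebuilt from the steps between low FPKM values. Marker counts are set beside all tested genes, of which 20.9% rose and 40.4% fell. Of 10 hepatocyte and hepatoma markers, all 10 rose, and their summed level was 4089 to 4236 FPKM with siControl and 7346 to 7464 with siASGR1. The 7 fibroblast markers summed to 5.55 to 6.72 and 0.640 to 0.880 FPKM. Only COL1A1 and COL1A2 were tested, and both were lower, having met the filter only through the siControl libraries. That direction therefore follows from the filter. Endothelial markers summed to at most 0.210 FPKM, with KDR at 0. Of 5 leukocyte markers only LYZ was tested and was higher. Of 4 cholangiocyte markers 3 were tested, with 1 higher and 1 lower, and KRT7 was at 0. Of 7 mitochondrial mRNAs 5 rose and 1 fell. Their part in the results below was not tested, and in bulk RNA fewer cells of a type and less RNA per cell cannot be told apart.

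Promoter sequence bears on these genes because several control one another. Windows from 250 bases before to 50 bases after each gene start were taken from RefSeq (GRCh38.p14) for the 8 members that matched, and both strands were searched. The C/EBP site TTGCNNAA occurs in 10.5% of all 35116 promoter windows, the D-box TTANGTAA in 2.18%, the E-box CACGTG in 7.26%, the cAMP response element TGACGNCA in 3.51%, and the composite C/EBP-ATF site TGATGNAA in 3.62%. A gene can have several windows, and by gene these shares are 12.7%, 2.71%, 8.77%, 4.25% and 4.46% of 27305. Of the 8 members 1 had a C/EBP site, 0 a D-box, 1 an E-box, 1 a cAMP response element and 1 a composite site. Distances here are from RefSeq starts, which need not match the gene bounds of GENCODE v29 printed further on. A window of CEBPG holds a composite site 42 bases upstream of such a start, which lies inside the GENCODE bounds of the gene. The window of NFIL3 holds a C/EBP site 35 bases upstream of the RefSeq start, which itself lies upstream of the GENCODE bounds of NFIL3. The window of HLF holds a cAMP response element that begins 7 bases upstream of the RefSeq start and ends on the start base. The RefSeq start of HLF likewise lies upstream of its GENCODE bounds. TEF has an E-box in 2 windows, 195 and 193 bases upstream, and no D-box was found in a member's window. Shown here are the stretches with the matches that lie nearest to a start, and the promoter of CYP2A6, the drug-metabolising cytochrome that has a D-box among the PAR bZIP targets described further on. Each stretch is 100 bases, 5′ to 3′ on the strand of the gene, with the match in capitals and no base in a GENCODE v29 exon.
CEBPG, chr19:33374013-33374112, plus strand: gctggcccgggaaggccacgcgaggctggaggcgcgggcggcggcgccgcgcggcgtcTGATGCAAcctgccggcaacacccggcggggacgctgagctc
NFIL3, chr9:91424627-91424726, minus strand: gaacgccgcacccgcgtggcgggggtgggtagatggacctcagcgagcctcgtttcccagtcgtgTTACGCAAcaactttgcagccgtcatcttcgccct
HLF, chr17:55264861-55264960, plus strand: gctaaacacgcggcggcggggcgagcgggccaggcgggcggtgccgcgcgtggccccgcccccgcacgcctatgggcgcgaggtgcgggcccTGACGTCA
CYP2A6, chr19:40850448-40850547, minus strand: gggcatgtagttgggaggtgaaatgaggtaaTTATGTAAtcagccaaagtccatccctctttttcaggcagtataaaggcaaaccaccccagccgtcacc
A match is a description of these letters and not evidence that a factor binds there.

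The question for the 9 genes was which factors were higher or lower once ASGR1 was targeted. CEBPD and HLF rose, CEBPB, CEBPG, DBP and NFIL3 fell, and CEBPA, CEBPZ and TEF did not pass the test. The counts are 2 higher and 4 lower of 9, where 20.9% of all tested genes rose, 40.4% fell and 61.3% changed in either direction. The groups did not overlap for 7 of the 9 genes, against 67.3% of all tested genes. The members' counts are near that background. The median log2 fold change was 0.03 for the 9 genes and -0.13 for all tested genes. With libraries scaled by the median of ratios, which moved the median of all genes to -0.007, 4 members rose and 4 fell, beside 29.9% and 28.9% of all genes (58.8% in either direction).

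**Figure D1:**
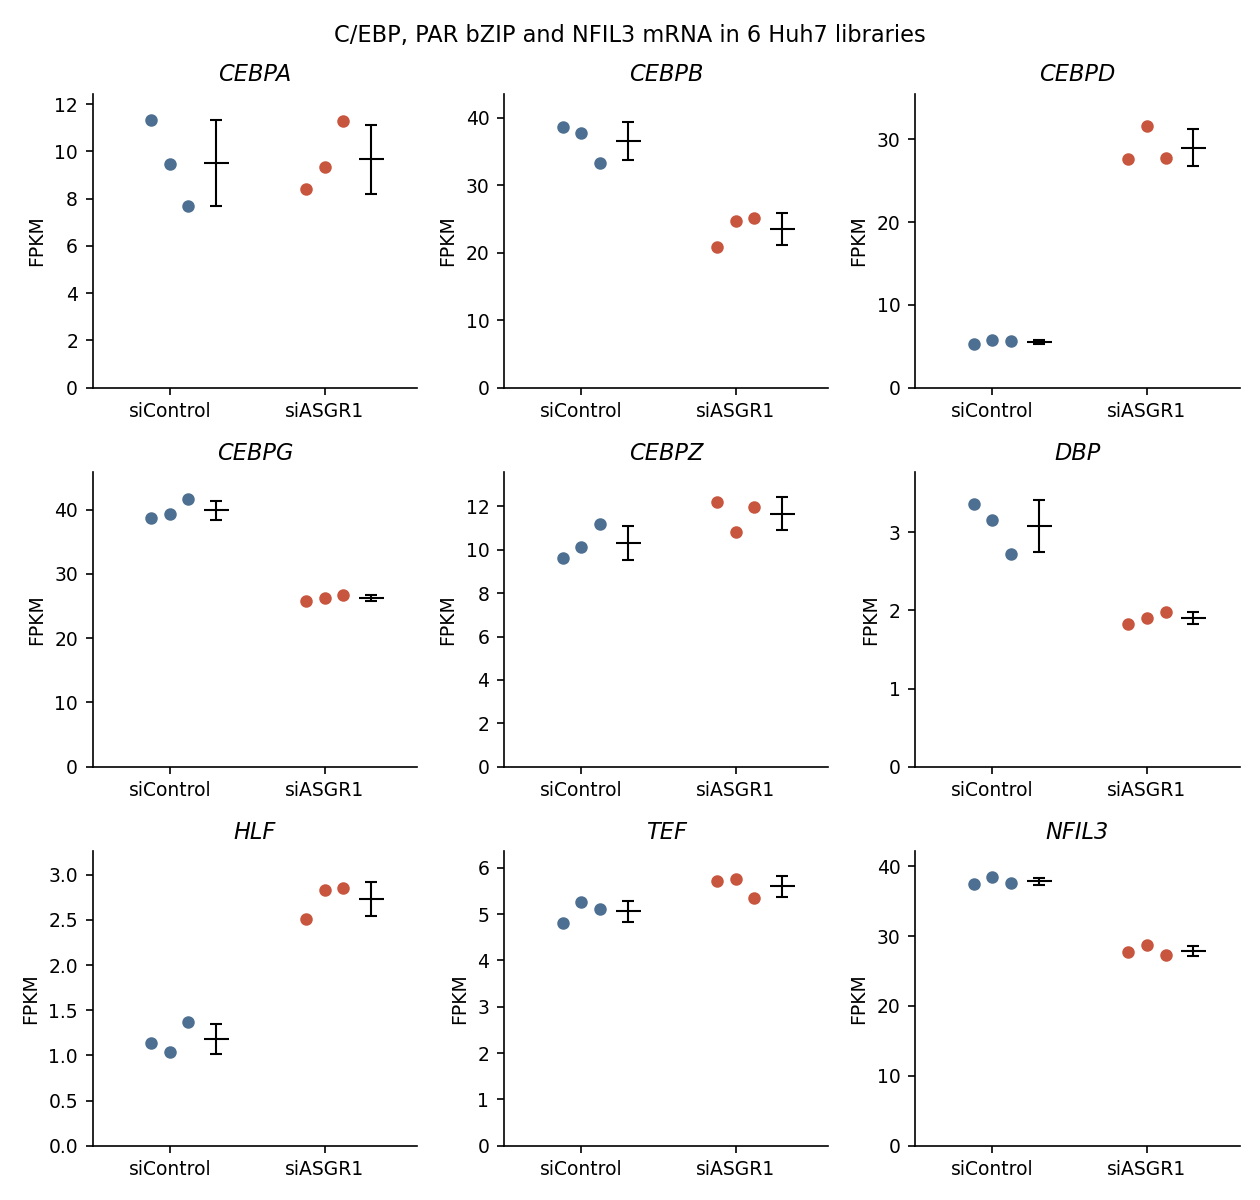
FPKM of each of the 9 genes in the 3 siControl (blue) and 3 siASGR1 (red) libraries, with the mean and SD of each group beside the points; each panel has its own scale from 0. CEBPD lies near 5 FPKM in every siControl library and above 27 in every siASGR1 library, while CEBPA spreads over the same range in both groups.

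CEBPD encodes C/EBP delta, a factor that is low at rest and induced early by cytokines, glucocorticoids and adipogenic signals. It was at 5.22, 5.71 and 5.65 FPKM with siControl and at 27.66, 31.60 and 27.75 FPKM with siASGR1 (ENSG00000221869). Every siASGR1 library was far above every siControl library. The mean went from 5.53 ± 0.27 to 29.0 ± 2.2 FPKM (SD, n = 3 each), 5.25-fold higher. The log2 fold change on the log2(FPKM + 1) scale was 2.20 (SE 0.065, 95% interval 2.05 to 2.35, adjusted p = 2.03e-06, limma), the 11th highest of the 13568 tested genes. About 201 to 1271 rebuilt reads per library stand behind these values.

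CEBPB encodes C/EBP beta, known for the acute-phase response, gluconeogenic genes and liver regeneration. It was at 38.58, 37.77 and 33.24 FPKM with siControl and at 20.83, 24.62 and 25.10 FPKM with siASGR1 (ENSG00000172216; chr20:50190734-50192689, plus strand, GRCh38). All 3 siASGR1 libraries lay below the lowest siControl library. The mean fell from 36.5 ± 2.9 to 23.5 ± 2.3 FPKM (SD, n = 3 each), to 64.4% of the siControl level (log2 fold change -0.62, SE 0.085, 95% interval -0.82 to -0.42, adjusted p = 0.000647, limma). CEBPB is a gene with 1 exon, and CEBPB-AS1, which covers 11.8% of it on the other strand, has no row in the table.

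CEBPG encodes C/EBP gamma, the partner that joins ATF4 on genes of amino acid supply and redox defence, and its own promoter window carries a composite C/EBP-ATF site. It was at 38.70, 39.33 and 41.60 FPKM with siControl and at 25.76, 26.18 and 26.72 FPKM with siASGR1 (ENSG00000153879; chr19:33373330-33382686, plus strand). The libraries of each group lay close together, and the groups were well apart. The mean fell from 39.9 ± 1.5 to 26.2 ± 0.48 FPKM (SD, n = 3 each), 1.52-fold lower (log2 fold change -0.59, SE 0.042, adjusted p = 3.24e-05, limma).

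CEBPA, whose product C/EBP alpha restrains division and supports metabolic genes in mature hepatocytes, varied within both groups. It was at 11.34, 9.48 and 7.68 FPKM with siControl and at 8.41, 9.32 and 11.27 FPKM with siASGR1 (ENSG00000245848; chr19:33299934-33302564, minus strand). The groups overlapped almost fully. The means were 9.50 ± 1.8 and 9.67 ± 1.5 FPKM (SD, n = 3 each), and the 95% interval of the log2 fold change ran from -0.31 to 0.37 around 0.03 (adjusted p = 0.873, limma). Changes within those bounds, in either direction, remain compatible with these libraries. CEBPA shares exon bases with AC008738.3 and AC008738.5 on the other strand, both listed at 0.

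CEBPZ, the CCAAT-box factor without a leucine zipper, was at 9.61, 10.15 and 11.17 FPKM with siControl and at 12.21, 10.82 and 11.98 FPKM with siASGR1 (ENSG00000115816; chr2:37201612-37231713, minus strand). The groups overlapped at 1 siASGR1 library. The log2 fold change was 0.16 (SE 0.069, 95% interval 0.00 to 0.33, adjusted p = 0.0737, limma) and did not pass the test. It passed with scaling by the median of ratios (0.30, adjusted p = 0.00537, limma), and also without siControl library 3 (adjusted p = 0.0286, limma) or siASGR1 library 2 (adjusted p = 0.038, limma). CEBPZOS, NDUFAF7 and AC007390.2 overlap its exons on the other strand by 9.7%, 2.3% and 11.2% of exon bases. The strand setting of the counting is not given, so reads of these genes and of CEBPZ cannot be told apart there.

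The 4 C/EBP bZIP genes among the members, CEBPA, CEBPB, CEBPD and CEBPG, kept a similar summed level and changed in composition. Their sum was 93.8, 92.3 and 88.2 FPKM with siControl and 82.7, 91.7 and 90.8 FPKM with siASGR1, and the groups overlapped. DDIT3, a further bZIP gene of the family that is not a member here, was not part of this sum. It fell from 29.1 ± 2.7 to 15.7 ± 0.91 FPKM, so the similar level holds for these 4 genes only. CEBPD made up 5.56%, 6.19% and 6.41% of this sum with siControl and 33.5%, 34.5% and 30.5% with siASGR1. CEBPB made up 39.9% ± 1.9 with siControl and 26.6% ± 1.2 with siASGR1, and CEBPG 43.7% ± 3.1 and 29.7% ± 1.3 (SD, n = 3 each). CEBPA held 10.4% ± 1.7 and 10.9% ± 1.3. The ratio of CEBPD to CEBPB, the pair of acute-phase factors, was 0.135, 0.151 and 0.170 with siControl and 1.33, 1.28 and 1.11 with siASGR1. CEBPB thus exceeded CEBPD in every siControl library and the reverse held in every siASGR1 library. These sums, shares and ratios are descriptions and were not tested. The sums are of FPKM as deposited and depend on how libraries are scaled, while shares and ratios within a library do not.

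**Figure D2:**
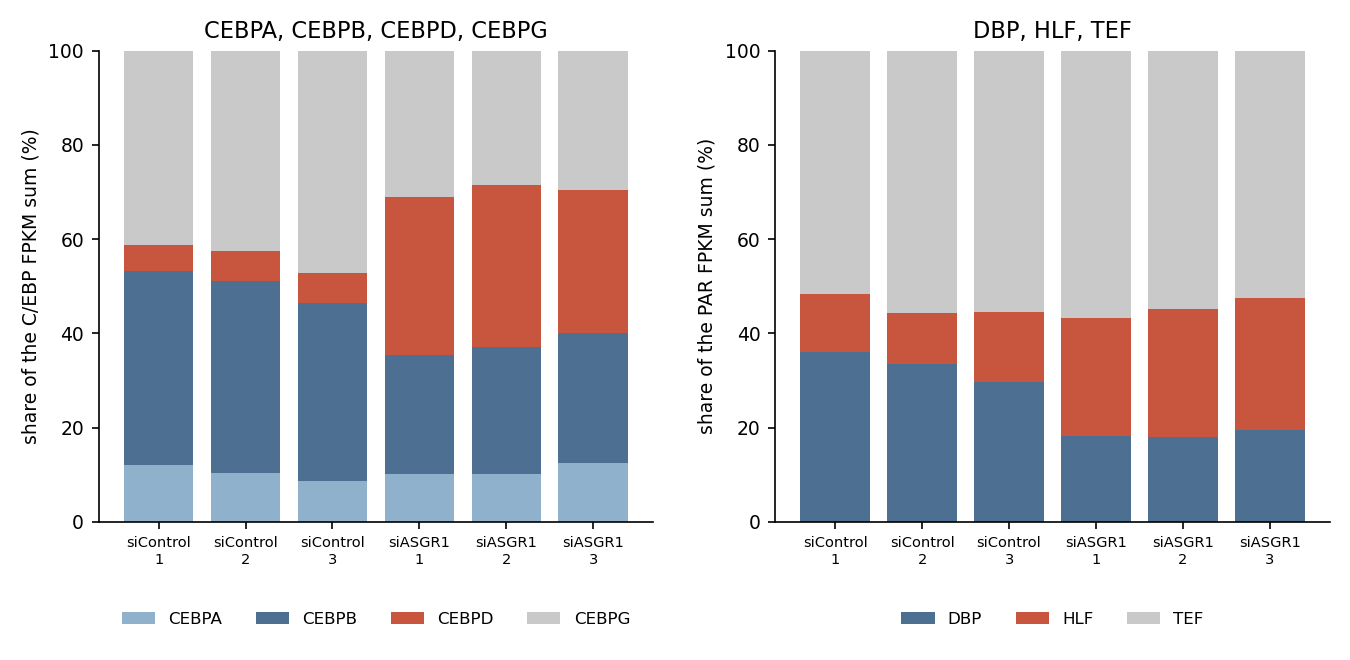
Stacked bars give, for each of the 6 libraries, the share of the summed FPKM of CEBPA, CEBPB, CEBPD and CEBPG (left) and of DBP, HLF and TEF (right), in percent. The CEBPD share is 5.56% to 6.41% in the siControl bars and 30.5% to 34.5% in the siASGR1 bars, and on the right HLF widens while DBP narrows around a nearly constant TEF share.

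Among the PAR bZIP factors, DBP and HLF moved in opposite directions. DBP, the albumin D-site binding protein and a direct output of the clock through E-boxes, was at 3.36, 3.16 and 2.72 FPKM with siControl and at 1.83, 1.90 and 1.98 FPKM with siASGR1 (ENSG00000105516; chr19:48630030-48637438, minus strand). The siASGR1 libraries were all below the siControl libraries and closer together. The mean fell from 3.08 ± 0.33 to 1.90 ± 0.075 FPKM (SD, n = 3 each), 1.62-fold lower (log2 fold change -0.49, SE 0.081, 95% interval -0.68 to -0.30, adjusted p = 0.0016, limma). SPHK2 overlaps 10.1% of the DBP exon bases on the other strand and was at 1.78 and 1.30 FPKM, so a part of the DBP signal cannot be told apart from it.

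HLF, the hepatic leukemia factor, is known in adult liver and in blood stem cells and is joined to another gene in a form of childhood leukaemia. It was at 1.14, 1.04 and 1.37 FPKM with siControl and at 2.51, 2.83 and 2.85 FPKM with siASGR1 (ENSG00000108924; chr17:55265012-55325065, plus strand). No siASGR1 library came near the siControl range. The mean rose from 1.18 ± 0.17 to 2.73 ± 0.19 FPKM (SD, n = 3 each), 2.31-fold higher (log2 fold change 0.77, SE 0.09, 95% interval 0.56 to 0.99, adjusted p = 0.000279, limma). At such a low level the added pseudocount of 1 understates the change; with a pseudocount of 0.1 the log2 fold change was 1.15. Between 115 and 362 rebuilt reads per library cover HLF.

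TEF, the thyrotroph embryonic factor, was the highest of the trio at 4.81, 5.26 and 5.11 FPKM with siControl and 5.71, 5.76 and 5.34 FPKM with siASGR1 (ENSG00000167074; chr22:41367333-41399326, plus strand). The groups were apart by a narrow gap. The log2 fold change was 0.12 (SE 0.056, 95% interval -0.01 to 0.26, adjusted p = 0.0923, limma) and did not pass the test, but it did with scaling by the median of ratios (0.25, adjusted p = 0.00713, limma). Both TEF windows hold an E-box, the element through which the clock acts on DBP.

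NFIL3 was one of the most precisely measured members. It was at 37.41, 38.42 and 37.63 FPKM with siControl and at 27.71, 28.70 and 27.32 FPKM with siASGR1 (ENSG00000165030; chr9:91409045-91423862, minus strand). The groups were separated by many times their own spread. The mean fell from 37.8 ± 0.53 to 27.9 ± 0.71 FPKM (SD, n = 3 each), 1.36-fold lower (log2 fold change -0.43, SE 0.037, 95% interval -0.51 to -0.34, adjusted p = 7.63e-05, limma).

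The balance between the D-box repressor and its activators was read as the ratio of NFIL3 to the summed level of DBP, HLF and TEF. The sum was 9.31, 9.46 and 9.20 FPKM with siControl and 10.1, 10.5 and 10.2 FPKM with siASGR1, the siASGR1 libraries being slightly higher in FPKM as deposited. NFIL3 exceeded the sum 4.02, 4.06 and 4.09 times with siControl and 2.76, 2.74 and 2.69 times with siASGR1. The ratio was thus lower in all 3 siASGR1 libraries, though NFIL3 mRNA remained above that of its antagonists in each. Within the trio, DBP went from 33.0% ± 3.3 to 18.6% ± 0.76 of the sum, HLF from 12.7% ± 2 to 26.7% ± 1.5, and TEF stood at 54.3% ± 2.3 and 54.7% ± 2.2 (SD, n = 3 each). HLF was below DBP in each siControl library, with ratios of 0.339, 0.329 and 0.504, and above it in each siASGR1 library, with ratios of 1.37, 1.49 and 1.44. Sums, shares and ratios between genes depend on exon length, in GENCODE v29 6544 bases for DBP and 6602 for HLF with all annotated exons merged. FPKM understates a gene whose transcripts in these cells are shorter than that. Transcript lengths were not tested, so which gene of a pair has more mRNA molecules is not settled.

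Ranked by FPKM, the members changed order. With siControl the order was CEBPG at 39.9, NFIL3 at 37.8, CEBPB at 36.5, CEBPZ at 10.3, CEBPA at 9.50, CEBPD at 5.53, TEF at 5.06, DBP at 3.08 and HLF at 1.18 FPKM. Values of NFIL3 and CEBPB, of CEBPZ and CEBPA, and of CEBPD and TEF overlapped there. With siASGR1 CEBPD stood first at 29.0, followed by NFIL3 at 27.9, CEBPG at 26.2, CEBPB at 23.5, CEBPZ at 11.7, CEBPA at 9.67, TEF at 5.60, HLF at 2.73 and DBP at 1.90 FPKM. CEBPD and NFIL3 overlapped in that group, as did CEBPZ and CEBPA. CEBPD thus moved from the level of TEF to that of the members with the highest FPKM. This order of genes depends on the exon lengths used.

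**Figure D3:**
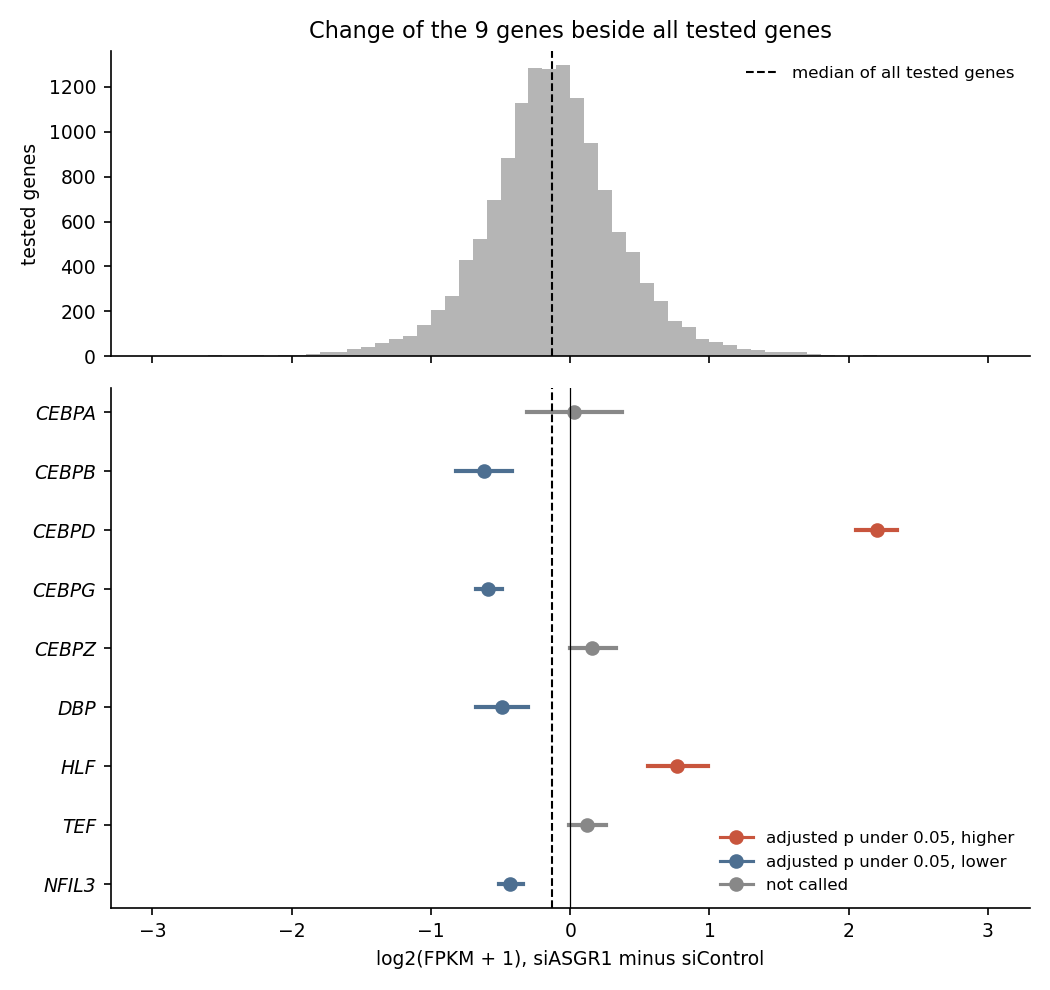
Top, histogram of the log2 fold change (siASGR1 minus siControl, log2(FPKM + 1)) of the 13568 tested genes, with their median of -0.13 as a dashed line; bottom, the same quantity for the 9 genes with 95% intervals as bars. CEBPD at 2.20 lies in the far right tail, HLF at 0.77 on the right flank, and CEBPB, CEBPG, DBP and NFIL3 between -0.62 and -0.43 lie within the bulk of the distribution.

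Lists of genes around the members were described by counts, beside the shares of all tested genes given above. Some genes are counted in several lists. PER1 counts as lower among the PAR bZIP targets, the clock genes and the glucocorticoid-responsive genes. TAT counts as lower among the C/EBP liver targets and the glucocorticoid-responsive genes. Of 13 further bZIP partners of the C/EBP proteins, 8 were tested, with 1 higher and 6 lower and a median log2 fold change of -0.34. JUN, the AP-1 subunit, fell from 101 ± 2.6 to 33.6 ± 1.8 FPKM (adjusted p = 2.08e-06, limma). ATF3, a stress-induced repressor, fell from 10.5 ± 0.51 to 2.29 ± 0.32 FPKM, 4.58-fold lower (adjusted p = 5.85e-06, limma). DDIT3, or CHOP, which pairs with C/EBPs and keeps them from their usual sites, fell from 29.1 ± 2.7 to 15.7 ± 0.91 FPKM (adjusted p = 7.87e-05, limma). ATF5 alone rose, from 0.887 ± 0.072 to 2.18 ± 0.26 FPKM (adjusted p = 0.000402, limma), having met the filter only through the siASGR1 libraries. With scaling by the median of ratios the split was 2 higher and 4 lower. CEBPE, the myeloid member of the C/EBP family, was at 0.15 FPKM in 1 library and listed at 0 in the others.

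Of 18 regulators of C/EBP proteins and mRNAs 16 were tested, with 4 higher, 4 lower and a median of -0.01 (7 higher and 4 lower with scaling by the median of ratios). CALR, a chaperone of the endoplasmic reticulum that also binds CEBPA and CEBPB mRNA, rose from 304 ± 3.8 to 649 ± 29 FPKM (adjusted p = 4.01e-06, limma). STAT3, which carries the interleukin-6 signal to CEBPD, fell from 13.6 ± 0.27 to 9.67 ± 0.22 FPKM (adjusted p = 0.000108, limma). RPS6KA1, a kinase that phosphorylates C/EBP beta, fell 1.45-fold (adjusted p = 0.000288, limma), and TRIB1, which directs C/EBP alpha to degradation, fell 1.76-fold (adjusted p = 0.000553, limma).

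Of 24 liver genes that C/EBP factors are known to activate 15 were tested, with 11 higher and 3 lower and a median log2 fold change of 0.63 (12 and 3 with scaling by the median of ratios). ARG1, the urea cycle arginase, rose from 1.87 ± 0.18 to 13.9 ± 0.48 FPKM, 7.41-fold (adjusted p = 1.75e-06, limma). SERPINA1, or alpha-1 antitrypsin, rose from 199 ± 11 to 420 ± 7.7 FPKM (adjusted p = 6.4e-06, limma), AHSG, or fetuin-A, from 4.36 ± 0.74 to 23.1 ± 1.4 FPKM (adjusted p = 6.81e-06, limma), and TTR, or transthyretin, from 27.1 ± 1.7 to 60.8 ± 5.1 FPKM (adjusted p = 2.04e-05, limma). TAT, SAA1 and SAA2 fell; TAT is the tyrosine aminotransferase, and the others are acute-phase serum amyloid A genes whose near-identical copies make their values uncertain. TAT was at 1.48, 1.22 and 1.40 FPKM with siControl and at 0.79, 0.44 and 0.64 FPKM with siASGR1 (adjusted p = 0.00543, limma). With quantile normalization only SAA1 of these 3 was still called, TAT and SAA2 having adjusted p = 0.0569 and 0.0668 (limma), and none of the 3 met a filter of at least 5 FPKM. ALB, TTR, TF and SERPINA1 also belong to the hepatocyte markers, of which all 10 rose. HP, TAT and SAA1 met the filter only with the help of the group in which they were higher.

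Of 15 genes that PAR bZIP factors are known to activate 9 were tested, with 0 higher and 5 lower and a median of -0.32. With scaling by the median of ratios 3 were higher and 5 lower. At an unadjusted p under 0.05, limma likewise had 0 higher, as did limma-voom at an adjusted p under 0.05. PER1, a clock gene, was at 7.01, 7.60 and 6.77 FPKM with siControl and at 3.37, 2.76 and 2.85 FPKM with siASGR1 (2.38-fold lower, adjusted p = 3.92e-05, limma). CYP2B6 fell from 20.3 ± 0.58 to 12.3 ± 1.1 FPKM (adjusted p = 0.000109, limma), CES1, a carboxylesterase, from 70.5 ± 1.8 to 54.0 ± 1 FPKM (adjusted p = 0.000121, limma), and ALAS1, the first enzyme of haem synthesis, from 103 ± 0.26 to 82.6 ± 3 FPKM (adjusted p = 0.000313, limma). CYP2A6 was named after its values were seen, for the D-box shown above 69 bases upstream of its start. It was at 3.83, 3.40 and 3.16 FPKM with siControl and at 1.30, 1.24 and 1.80 FPKM with siASGR1 (log2 fold change -0.87, adjusted p = 0.000404, limma). CYP2A6, CYP2B6 and CES1 have close copies with which reads may be shared.

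**Figure D4:**
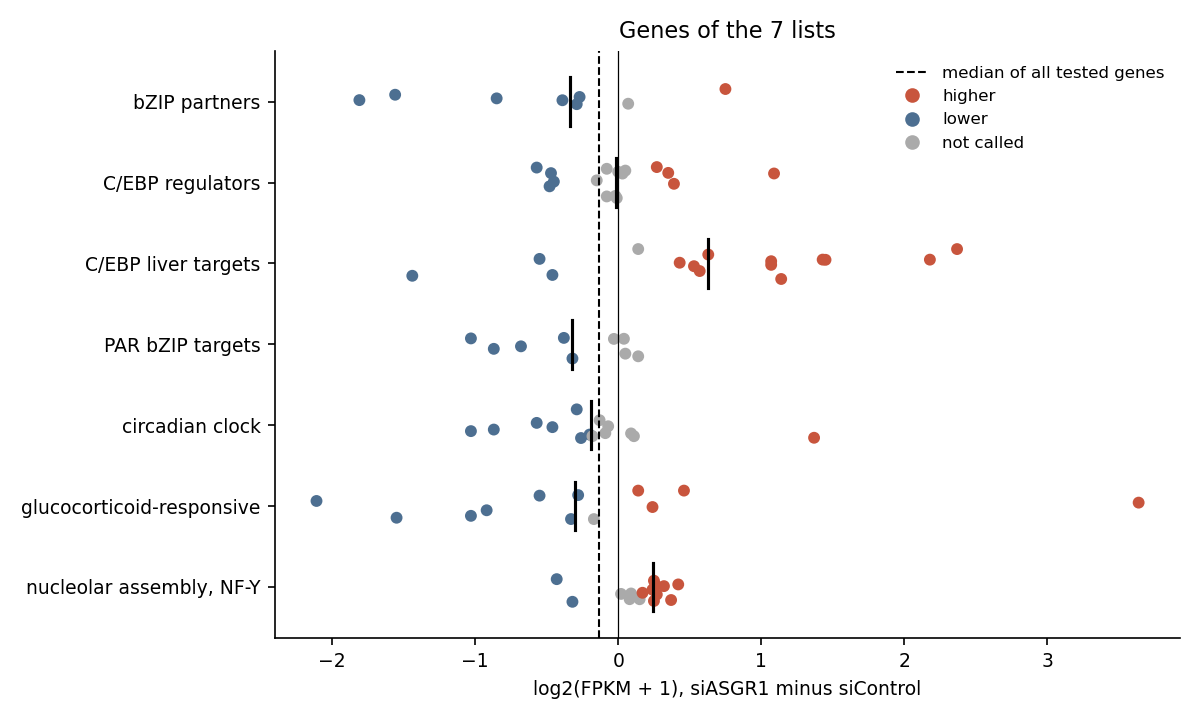
Each point is a tested gene of 1 of the 7 lists, placed by its log2 fold change (siASGR1 minus siControl, log2(FPKM + 1)) and coloured by the test at an adjusted p under 0.05; vertical offsets have no meaning. Short bars mark list medians, from 0.63 for the C/EBP liver targets to -0.34 for the bZIP partners, and the dashed line the median of all tested genes, -0.13.

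Of 20 circadian clock genes outside the members 14 were tested, with 1 higher and 7 lower (2 and 5 with scaling by the median of ratios) and a median of -0.19. BHLHE40, a repressor of the clock activators, rose from 5.32 ± 0.68 to 15.3 ± 0.74 FPKM, 2.87-fold (adjusted p = 1.72e-05, limma). NR1D1 and NR1D2, the REV-ERB receptors that repress BMAL1 and NFIL3, fell 2.01-fold and 1.54-fold (adjusted p = 0.00012 and 5.26e-05, limma). CLOCK and BMAL1, the activator pair, did not pass the test, at 2.36 ± 0.25 and 1.95 ± 0.2 FPKM for CLOCK (adjusted p = 0.114, limma) and at 1.24 ± 0.072 and 1.38 ± 0.16 FPKM for BMAL1 (adjusted p = 0.434, limma). CLOCK did pass, as lower, with limma-voom on rebuilt reads (adjusted p = 0.019), and BMAL1, as higher, with quantile normalization (adjusted p = 0.0254, limma). A D-box was found in the windows of 4 of the 17 clock genes with a RefSeq window (PER2, PER3, NR1D2 and RORB), against 2.71% of all genes in the RefSeq table. PER3 and RORB did not meet the filter on low values. Other lists and motifs also lay away from their shares, on either side. A C/EBP site was in 4 of 10 glucocorticoid-responsive genes, against 12.7% of all genes, and a D-box in 0 of 16 C/EBP regulators. Such counts are small and were not tested. Each group was harvested at 1 time, so phase and level of the clock cannot be told apart.

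All 12 glucocorticoid-responsive genes, listed because CEBPD and PER1 respond to this hormone, were tested, with 4 higher and 7 lower and a median of -0.31 (4 and 6 with scaling by the median of ratios). MT2A, a metallothionein with close copies, rose from 3.55 ± 0.63 to 55.4 ± 4.5 FPKM, 15.6-fold (adjusted p = 2.03e-06, limma). DUSP1, a MAP kinase phosphatase, fell from 24.1 ± 0.63 to 4.82 ± 0.56 FPKM (adjusted p = 2.63e-06, limma). TSC22D3, or GILZ, fell 3.24-fold (adjusted p = 3.04e-06, limma) and KLF9 fell 2.06-fold (adjusted p = 2.44e-05, limma). The receptor gene NR3C1 was at 3.51 ± 0.49 and 3.01 ± 0.32 FPKM (adjusted p = 0.19, limma). The other genes of the list that rose were FKBP5, at 1.64-fold (adjusted p = 0.00826, limma), ZBTB16, at 1.22-fold (adjusted p = 0.0153, limma), and SGK1, at 1.12-fold (adjusted p = 0.0301, limma). SGK1 no longer passed the test when any 1 library other than siControl 2 was left out (adjusted p = 0.0589 to 0.0824, limma).

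The setting of CEBPZ was taken from 16 nucleolar assembly factors and NF-Y subunits, of which 15 were tested, with 9 higher and 2 lower and a median log2 fold change of 0.24 (12 and 1 with scaling by the median of ratios). Without siASGR1 library 3 the number of higher genes was 5. NOC2L, a partner in large-subunit assembly, rose from 31.1 ± 1.6 to 42.0 ± 1.3 FPKM (adjusted p = 0.000274, limma). WDR12 rose from 5.37 ± 0.025 to 7.24 ± 0.32 FPKM (adjusted p = 0.000595, limma) and NOP14 from 19.4 ± 0.25 to 23.0 ± 0.84 FPKM (adjusted p = 0.00209, limma). NFYA, the DNA-contacting subunit of the CCAAT-box factor NF-Y, fell from 12.8 ± 0.53 to 10.0 ± 0.48 FPKM (adjusted p = 0.00151, limma). CEBPZ itself, at 1.13-fold, did not pass the test. It differed by less than NOC2L and WDR12, at 1.35-fold each, by as much as FTSJ3 and NFYC, at 1.13-fold each, and by more than RRP1B, at 1.01-fold.

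For 5 members the 3 tested genes with the most similar pattern were found, by the root mean square difference of log2(FPKM + 1) over the 6 libraries after subtraction of each gene's siControl mean. For CEBPD these were AGMAT (0.0948), H2BC5 (0.0982) and SREBF1 (0.107). AGMAT, agmatinase, went from 3.97 ± 0.3 to 20.9 ± 1.3 FPKM, and SREBF1, a regulator of lipid synthesis genes, from 11.1 ± 1.3 to 52.5 ± 1.9 FPKM. H2BC5 is a histone gene of a large family with similar copies. For CEBPB they were ID3 (0.0514), DRD4 (0.0522) and POLR2C (0.0550), and for CEBPA they were C1QL3 (0.0757), B9D2 (0.0797) and ZNF296 (0.0805). For DBP they were PXDC1 (0.0213), PTPN23 (0.0258) and CDK18 (0.0277), and for NFIL3 they were EFEMP1 (0.0140), ILRUN (0.0174) and GORASP2 (0.0180). All points come from the same 6 libraries, so likeness includes whatever those libraries share.

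**Figure D5:**
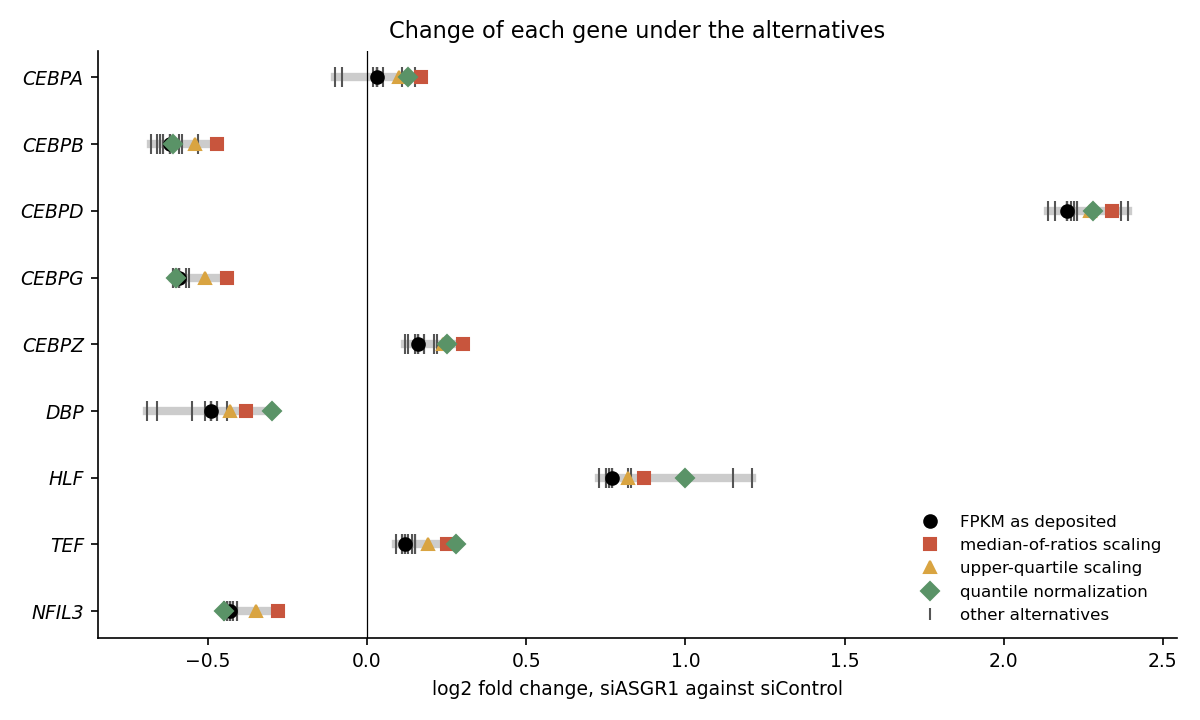
Log2 fold change (siASGR1 against siControl) of each of the 9 genes under the fit used throughout (black), 3 other scalings (coloured symbols) and the other alternatives (ticks), with the range as a grey bar. CEBPA runs from -0.10 to 0.17 across 0, while each of the other 8 genes stays on 1 side of 0.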

How the data were processed

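Per the labels' protocols, a TruSeq RNA kit was used on 1 µg of total RNA per library. The submitters' processing notes name hg19, HISAT2 2.0.1, cutadapt 1.9.1 and bcl2fastq 2.17.1.14. How reads were counted, with which strand setting and which annotation, is not given in the sources used here. FPKM values with 2 decimals were deposited by the authors, and the values show that the table named as raw counts holds FPKM too. Groups were taken from the labels, and 0 columns of other samples were present.

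Depth was rebuilt from the steps between low FPKM values with GENCODE v29 exon lengths: 95.9% to 96.5% of 4274 to 5492 values per library came out as whole reads within rounding plus 0.02 reads, where chance gives 12.0% to 12.5%. This share is also what the depth was fitted on. Rebuilt reads served only for depth and for 1 alternative. Gene symbols were matched for 51996 of 57905 IDs (89.8%). The tables hold no coordinates, and those printed come from GENCODE v29 and RefSeq on GRCh38.

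The 13568 genes that reached 1 FPKM in 3 or more libraries were fitted with limma 3.58.1 in R 4.3.3 on log2(FPKM + 1), with a prior following the level, two-sided, and with Benjamini-Hochberg adjustment over all of them; calls are at an adjusted p under 0.05. The fit was tested on simulated data with few changed genes, as many up as down, which is not the setting of these data. That test therefore does not bear on the many calls here. Fold changes are ratios of mean FPKM, while log2 fold changes include the pseudocount and so understate the change of a low gene. Alternatives were other scalings, pseudocount, filter, prior, threshold, source, a replicate block, limma-voom and leaving out each library.

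The members and the 7 lists were chosen with earlier results of these data known. Named were all members, ASGR1, up to 4 called genes with the smallest p-values of each list, genes named in more than 1 list, and 3 similar genes for each of 5 members. CEBPE, CLOCK, BMAL1, NR3C1, FKBP5, ZBTB16, SGK1, HP, TAT, SAA1, SAA2 and CYP2A6 were named after their values were seen.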

Additional observations from a re-analysis of the deposited data

How the results depend on the processing

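Of 142 log2 fold changes of members under the alternatives 133 kept their side of the threshold and 9 came to pass it, all of them of CEBPZ or TEF. CEBPA, never called, ran from -0.10 to 0.17, and the other 8 genes kept their direction. CEBPZ was called with scaling by the median of ratios, upper-quartile scaling, quantile normalization and limma-voom, at log2 fold changes of 0.30, 0.24, 0.25 and 0.18, and TEF with the first 3 of these, at 0.25, 0.19 and 0.28. Members called higher were therefore 4 with each of these 3 scalings, and 1 with a filter of at least 5 FPKM, which DBP and HLF did not meet. That filter left 7829 genes, of which 3382 were lower. CEBPD ranged from 2.14 to 2.39, CEBPB from -0.68 to -0.47, CEBPG from -0.61 to -0.44, DBP from -0.69 to -0.30, HLF from 0.73 to 1.21 and NFIL3 from -0.45 to -0.28, each past the threshold wherever tested. Calls over all genes were 2839 higher and 5480 lower in the fit used, 4056 and 3921 with scaling by the median of ratios, 3399 and 4689 with upper-quartile scaling, and 3890 and 4015 with quantile normalization; which scaling is nearest to RNA per cell was not tested. The median-of-ratios factors were 1.05 to 1.062 for siControl and 0.9386 to 0.9544 for siASGR1. Dividing by them lowers siControl levels and raises siASGR1 levels, sums of members included. Of 36 mean levels of members with that scaling or from the single-library files, 28 stayed within the SD of their group and 8 did not. Leaving out 1 library gave 2495 to 2757 higher and 4950 to 5151 lower genes. With a replicate block 2761 genes were higher and 5303 lower, and 2 members were higher and 4 lower, as without it. Same-numbered libraries did not deviate together (correlations of -0.0189, 0.00208 and 0.0125). These correlations cannot show how the cultures were arranged, so whether the numbers are a pairing is not settled. With 16311000 to 19315000 fragments per library, HLF had 115 to 362 and DBP 224 to 425 rebuilt reads, and CEBPD had as few as 201 in a siControl library.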
